A study of Mus musculus with 10 samples.

Results

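The 42 genes of the deposited table whose symbol names a collagen chain (Col, a type number, a and a chain number) were described here, out of 26335 rows. They were divided into 11 fibrillar chains, 6 chains of the basement membrane type IV and 25 chains of other types. Of these, 19 had a mean log2 CPM above 0 over the 10 libraries and were tested, namely 7 fibrillar, 3 basement membrane and 9 other chains. CPM divide a gene's reads by the depth of the library, and every level below is on the log2 CPM scale unless reads or percent are named. RNA was sequenced from mSCLC-2405 cells, 1 line of murine small cell lung carcinoma grown from a primary lung tumor. The tumor arose in an engineered mouse with conditional gene deletion, Rb1 included, induced by Adeno-Cre given into the trachea, so control and treated cells share that background, and 1 line stands for the model. Cells were kept in RPMI medium with 10% FBS and received DMSO (control, 5 libraries) or 250 μM stiripentol (5 libraries) for 48 h. Stiripentol is an antiseizure medicine, and the sequencing asked how gene expression changes in these tumor cells under the drug.

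Collagens are secreted proteins of 3 chains wound into a triple helix, and each gene encodes 1 chain. Fibrillar collagens (types I, III, V) form the tensile fibers of connective tissue, type IV forms the sheet beneath epithelia and vessels, and other types coat fibrils, anchor them or make filaments around cells. In the lung, fibrillar collagen is mainly a product of fibroblasts, and its density and crosslinking in tumors affect stiffness and cell movement. Each chain is hydroxylated and folded in the endoplasmic reticulum, leaves it in large COPII carriers, loses its propeptides outside the cell and is then crosslinked by lysyl oxidases.

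The 250 bases before the RefSeq transcript start (GRCm38.p6, the build that the labels name as mm10) are shown for the 3 chains with the largest falls and for the 1 chain that rose. Capitals mark 3 general promoter elements on either strand, the CCAAT box, the TATA box searched as TATAAA, and the GC box searched as GGGCGG.
Col3a1, chr1:45311288-45311537, plus strand: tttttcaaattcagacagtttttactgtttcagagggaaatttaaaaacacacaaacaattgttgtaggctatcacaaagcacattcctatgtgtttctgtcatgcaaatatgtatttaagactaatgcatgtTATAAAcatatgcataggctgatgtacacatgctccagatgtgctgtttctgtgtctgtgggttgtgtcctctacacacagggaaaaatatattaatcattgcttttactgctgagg
Col8a1, chr16:57754738-57754987, minus strand: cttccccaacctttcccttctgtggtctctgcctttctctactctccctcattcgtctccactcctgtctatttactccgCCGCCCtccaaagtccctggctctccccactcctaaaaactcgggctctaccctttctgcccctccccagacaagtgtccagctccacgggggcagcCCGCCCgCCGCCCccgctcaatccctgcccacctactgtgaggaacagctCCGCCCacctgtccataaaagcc
Col1a2, chr6:4505368-4505617, plus strand: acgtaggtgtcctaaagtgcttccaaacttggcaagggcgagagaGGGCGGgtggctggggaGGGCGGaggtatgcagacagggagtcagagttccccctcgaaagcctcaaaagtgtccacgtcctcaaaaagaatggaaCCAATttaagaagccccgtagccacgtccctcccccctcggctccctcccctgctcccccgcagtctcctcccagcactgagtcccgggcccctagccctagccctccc
Col20a1, chr2:180986285-180986534, plus strand: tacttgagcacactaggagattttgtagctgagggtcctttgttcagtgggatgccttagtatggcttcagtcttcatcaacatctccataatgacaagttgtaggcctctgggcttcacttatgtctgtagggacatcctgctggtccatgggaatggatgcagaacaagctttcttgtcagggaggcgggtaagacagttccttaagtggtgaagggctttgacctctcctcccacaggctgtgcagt
Col3a1 has the letters TATAAA in this window, Col1a2 has CCAAT and 2 copies of GGGCGG, Col8a1 has 4 copies of GGGCGG and Col20a1 has none of the 3 motifs. The Col20a1 window lies inside the gene, whose RefSeq span begins at 180983323, before a transcript start at 180986535. The bases before the first base of that gene were not searched. A window was found for 16 of the 19 chains tested, of which 8 hold CCAAT, 11 hold GGGCGG and 1 holds TATAAA. Col6a2 and Col18a1 have more than 1 window, and a match in any of them was counted for the chain. Over all 32851 mouse windows of this length the shares were 33.8% for CCAAT, 32.7% for GGGCGG and 12.4% for TATAAA. These shares are per window, so they are not in the same unit as the counts of chains. These matches describe letters and not bound sites.

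Control libraries held 22375625 to 65299372 recovered reads, with control 5 the shallowest, and stiripentol libraries 55015760 to 60670901. Over all genes each group split into 2 clusters of libraries, with correlations of 0.983 to 0.997 inside a cluster and 0.920 to 0.939 between them. Controls 4 and 5 with stiripentol 1 and 2 are called the 4-library set here, and controls 1 to 3 with stiripentol 3 to 5 the 6-library set. Because the clusters were found from these same libraries, the spread inside a set is small by selection. P-values within a set, and those of a difference between the sets, therefore describe these libraries and are no measure of the drug effect. The sets were joined across groups by their size and by the numbering of the study's own table, where the controls are numbered otherwise than here. What separates the sets is not stated in the sources used here. Controls 1 to 3 had a lower value for genes with no reads than all other libraries. Within the 6-library set the drug and that difference cannot be told apart. The study describes n in general as independent samples from individual mice, but these libraries are of 1 line and no source used here says whether they came from separate cultures, so p-values measure the spread between these libraries, which may be technical. Of 10 neuroendocrine markers, 7 are in the table, and Dll3, Insm1, Epcam and Syp had at most 20 reads in any library, while Ncam1 was at 92.8 to 154 CPM and Uchl1 at 0.518 to 2.85 CPM. Of 9 fibroblast markers in the table, Thy1, Fap and Lum had at most 3 reads, whereas Pdgfra, Pdgfrb, Acta2, Tagln, Twist2 and Dcn were expressed.

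With stiripentol, 12 of the 19 collagen chains fell and 1 rose, and the other 6 were not called (limma, adjusted p under 0.05 over 12306 genes). Of all genes tested, 14.1% were called lower and 13.6% higher. The median change of the 19 chains was -0.93, against -0.06 for all genes. Of the 19, 18 pointed down, as did 6596 of the 12306 genes. Col5a2 turned to 0.076 with quantile normalization, and Col1a1, Col4a1, Col4a2 and Col15a1 pointed up within the 6-library set. For 10 chains every stiripentol library lay below every control library, which held for 14.3% of all genes, and no chain had every stiripentol library above, which held for 13% of all genes. With 1 mean per cluster and group as the replicate, 2 against 2, no chain and no other gene was called (limma). In that fit 9 chains had an unadjusted p under 0.05. The share of all genes at that level is not given here, so the count says nothing particular about the chains. In the same libraries the summed CPM of the fibroblast markers was 359 to 604 in control and 159 to 192 in stiripentol. Acta2 made 32.6 to 335 CPM of it in control and 25.7 to 68.5 in stiripentol libraries. Called changes were -1.27 for Pdgfra (adjusted p = 0.0152) and -1.49 for Pdgfrb (adjusted p = 0.00240) in limma. Not called in limma were Acta2 at -1.44 (adjusted p = 0.129), Twist2 at -1.23 (adjusted p = 0.0735), Tagln at -0.84 (adjusted p = 0.260) and Dcn at -0.49 (adjusted p = 0.557). The part of these markers in the collagen changes was not tested, and in bulk RNA fewer cells of a kind and less RNA per cell cannot be told apart. Endothelial markers summed to 27.2 to 75.5 CPM in control and 45.7 to 50.7 in stiripentol, of which Flt1 made 26.4 to 74.4 and 40.0 to 49.98 CPM. Immune markers summed to 6.52 to 19.0 CPM in control and 59.0 to 103 in stiripentol, of which the lysosomal gene Cd68 made 4.12 to 17.9 and 55.1 to 103 CPM, while the leukocyte gene Ptprc had at most 3 reads.

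**Figure D1:**
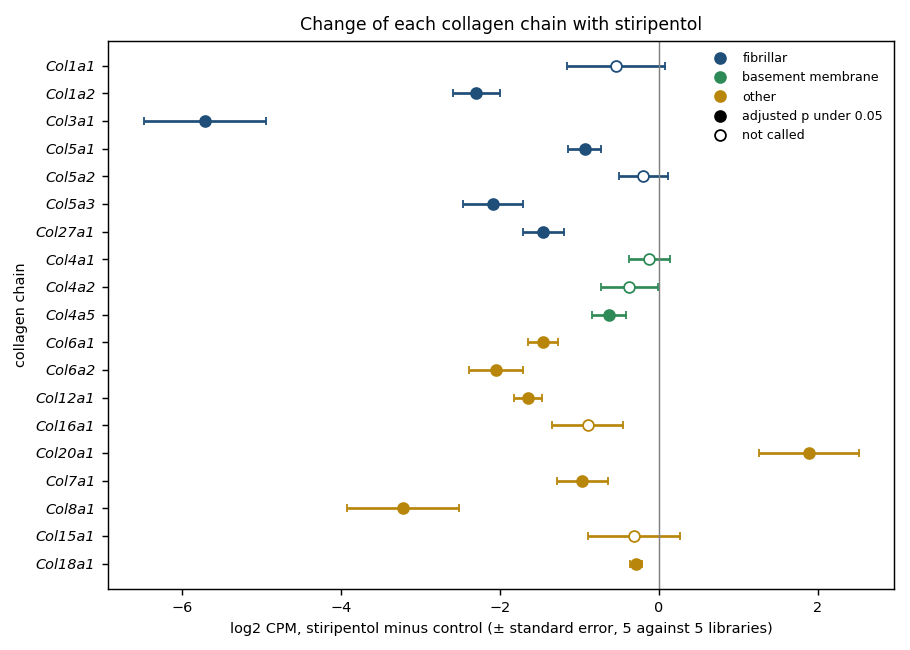
Change of each tested collagen chain on the log2 CPM scale, stiripentol minus control, with its standard error from limma over 5 against 5 libraries. Filled points are called at adjusted p under 0.05, and colors give the fibrillar, basement membrane and other chains. Col3a1 lies farthest left at -5.71, and Col20a1 is the one filled point right of 0.

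Among the fibrillar chains, 5 of 7 fell, against 14.1% of all genes, with a median change of -1.45, and Col1a1 and Col5a2 were not called. Col3a1, the single chain of type III collagen of elastic tissues such as lung and vessel wall, was at 8.36, 8.18, 8.27, 4.73 and 5.03 in controls 1 to 5 and at 1.87, 2.00, 0.70, 0.49 and 0.95 in stiripentol 1 to 5. The groups were far apart, and the 3 highest controls were those of the 6-library set. The reads behind these levels were 730 to 21421 in control and 82 to 229 in stiripentol libraries. Col3a1 fell by 5.71 (SE 0.77, n = 5 per group, adjusted p = 0.000746, limma), a 52.4-fold lower level. The change was -2.95 in the 4-library set and -7.56 in the 6-library set, since the controls of the latter started higher and its stiripentol libraries ended lower.

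The chains of type I collagen, which join in 1 molecule, did not follow the same course. Col1a2 was at 3.63, 3.40, 3.34, 2.87 and 3.05 in controls 1 to 5 and at 1.47, 1.60, 0.76, 0.19 and 0.77 in stiripentol 1 to 5. All stiripentol values of Col1a2 lay below all control values, and it fell by 2.30 (SE 0.29, adjusted p = 0.000571, limma). Col1a1 was at 6.11, 6.02, 4.67, 7.80 and 8.33 in controls and at 5.57, 5.30, 6.65, 6.28 and 6.44 in stiripentol libraries. The stiripentol values of Col1a1 lay inside the control range, and its change was -0.54 (SE 0.62, adjusted p = 0.529, limma). Within the 4-library set Col1a1 fell by 2.63 (adjusted p = 1.95e-07), whereas within the 6-library set its change was 0.86 (adjusted p = 0.0630), and control 3 lay below the other controls. The difference Col1a1 minus Col1a2 within a library moved in opposite directions in the sets. In the 4-library set it was 4.93 to 5.29 in control and 3.71 to 4.10 in stiripentol libraries, and in the 6-library set 1.33 to 2.62 and 5.67 to 6.09.

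The type V chains, which start type I fibrils and set their width, also differed. Col5a3 was at 4.04, 4.08, 2.14, 3.20 and 3.11 in controls and at 0.74, 0.86, 1.47, 1.38 and 1.67 in stiripentol libraries, with no overlap. Col5a3 fell by 2.09 (SE 0.37, adjusted p = 0.00308, limma). Col5a1 went from 8.71 ± 0.12 to 7.77 ± 0.50 (SD, n = 5 each) and fell by 0.93 (adjusted p = 0.00942, limma), again with no overlap. Col5a2 was near the lower limit of the filter, with 27 to 106 reads in control and 39 to 74 in stiripentol libraries, and its change of -0.20 (adjusted p = 0.644) was smaller than the spread between libraries. Col27a1, a fibrillar chain of cartilage, was at 3.39, 3.58, 3.20, 4.03 and 4.16 in controls and at 1.72, 2.09, 2.08, 2.51 and 2.69 in stiripentol libraries. Its groups did not overlap, and Col27a1 fell by 1.45 (SE 0.25, adjusted p = 0.00271, limma).

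**Figure D2:**
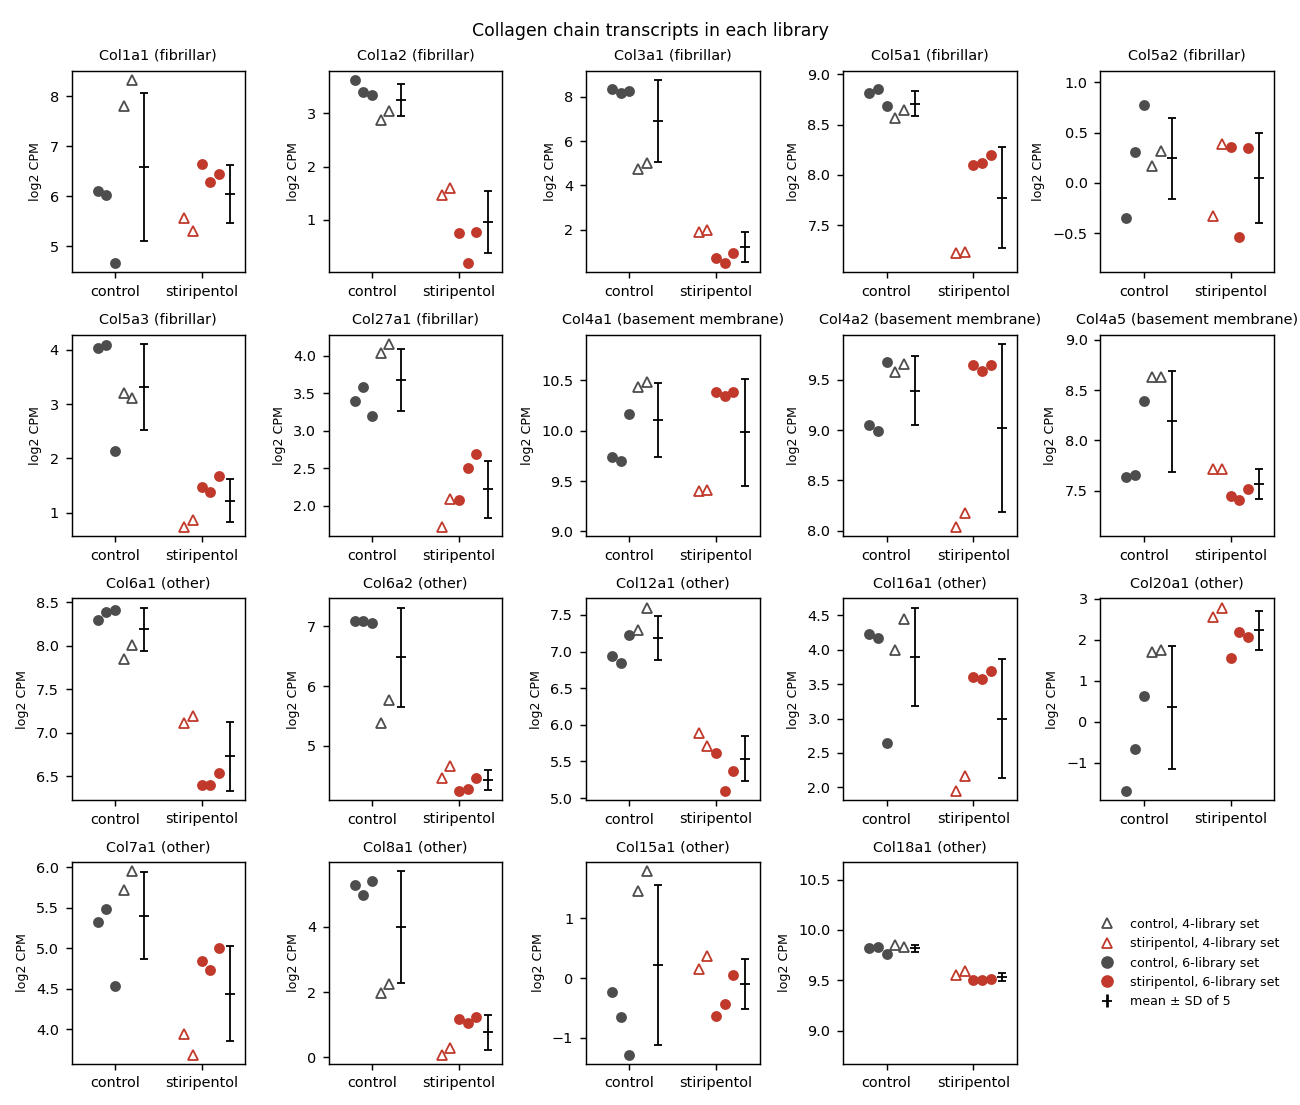
Log2 CPM of the 19 tested chains in each of the 10 libraries, 1 panel per chain with its own axis. Triangles are libraries of the 4-library set, filled circles those of the 6-library set, and bars give the mean ± SD of 5 libraries. Col3a1, Col6a2 and Col8a1 show 2 levels among the controls and lower stiripentol values, while the type IV chains Col4a1 and Col4a2 overlap between groups.

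The basement membrane chains changed less, with 1 of 3 called lower, against 14.1% of all genes, and a median change of -0.37. Col4a1, which forms the general type IV network with Col4a2, was at 9.74, 9.70, 10.17, 10.43 and 10.48 in controls and at 9.40, 9.41, 10.38, 10.34 and 10.38 in stiripentol libraries. Stiripentol 1 and 2 lay below all controls and the other 3 among them, and its change was -0.12 (SE 0.26, adjusted p = 0.741, limma). Col4a2 was at 9.05, 8.99, 9.68, 9.58 and 9.66 in controls and at 8.04, 8.18, 9.65, 9.59 and 9.65 in stiripentol libraries, and its change was -0.37 (SE 0.36, adjusted p = 0.448). The same stiripentol libraries were low for both chains, with called changes in the 4-library set of -1.05 for Col4a1 and -1.51 for Col4a2. In the 6-library set Col4a1 rose by 0.50 (adjusted p = 0.00879), and the change of Col4a2 was 0.39 (adjusted p = 0.0762).

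Col4a5, a chain of the type IV network of kidney and other epithelia, was at 7.64, 7.66, 8.39, 8.63 and 8.63 in controls and at 7.72, 7.72, 7.45, 7.41 and 7.52 in stiripentol libraries. Controls 1 and 2 lay among the stiripentol values, and Col4a5 fell by 0.63 (SE 0.21, adjusted p = 0.0498, limma). The call was close to the threshold and was lost on leaving out any 1 library other than control 1 or 2, with adjusted p of 0.0658 to 0.107. The genes Col4a1 and Col4a2 lie head to head on chromosome 8, and their RefSeq transcripts start at 11312826 on the minus and 11312805 on the plus strand, sharing 22 bases. The sources used here do not say whether reads were counted by strand, so reads in shared bases cannot be assigned.

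Of the 9 other chains, 6 fell and 1 rose, against 14.1% and 13.6% of all genes. The other 2 were not called, and the median change of the 9 was -0.97. Type VI collagen forms beaded filaments that link cells to the matrix, and both of its tested chains fell. Col6a1 was at 8.30, 8.39, 8.41, 7.85 and 8.01 in controls and at 7.11, 7.20, 6.40, 6.40 and 6.54 in stiripentol libraries, and it fell by 1.46 (SE 0.19, adjusted p = 0.000668, limma). Col6a2 was at 7.10, 7.09, 7.06, 5.39 and 5.77 in controls and at 4.47, 4.67, 4.25, 4.28 and 4.46 in stiripentol libraries, and it fell by 2.05 (SE 0.34, adjusted p = 0.00216, limma). Neither chain overlapped between the groups. Both changed more in the 6-library set (-1.92 and -2.75) than in the 4-library set (-0.77 and -1.004), a difference described below. Col6a3, the third chain of the classical type VI molecule, had a mean of -0.09 and so missed the filter. It was at 0.77, 0.59, 2.82, 0.51 and 1.03 in controls and at -1.51, -1.39, -1.67, -0.89 and -1.19 in stiripentol libraries, from 45 to 448 and 16 to 30 reads. With no filter on low values the change of Col6a3 was -2.47 (adjusted p = 0.00734, limma), without overlap between groups.

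Col12a1, a fibril-associated collagen of tendon and other dense tissue, was at 6.94, 6.85, 7.23, 7.29 and 7.60 in controls and at 5.89, 5.71, 5.62, 5.10 and 5.37 in stiripentol libraries. Its groups did not overlap, and Col12a1 fell by 1.65 (SE 0.18, adjusted p = 0.000280, limma), with changes of -1.64 and -1.65 in the 4-library and the 6-library set. Col16a1, also fibril-associated, changed by -0.90 (adjusted p = 0.154) and was not called. In the 4-library set the change of Col16a1 was -2.16 (adjusted p = 1.56e-06), and in the 6-library set -0.06 (adjusted p = 0.904, limma). Col20a1, of the same class, was at -1.68, -0.65, 0.64, 1.70 and 1.76 in controls and at 2.57, 2.79, 1.57, 2.19 and 2.07 in stiripentol libraries. All but 1 of its stiripentol values lay above the highest control, and Col20a1 rose by 1.88 (SE 0.63, adjusted p = 0.0466, limma). Its counts were low, at 18 to 205 reads in control and 170 to 398 in stiripentol libraries, and it shares 79 exon bases on the same strand with the transcript BX649560.1. The call of Col20a1 was lost on leaving out any 1 library other than control 4 or 5, with adjusted p of 0.0526 to 0.106.

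Col8a1, a short chain of networks around vessels and in the cornea, was at 5.30, 4.98, 5.42, 1.97 and 2.26 in controls and at 0.08, 0.28, 1.18, 1.05 and 1.22 in stiripentol libraries. The controls stood at 2 levels, both above every stiripentol value, and Col8a1 fell by 3.22 (SE 0.71, adjusted p = 0.00854, limma). Col7a1, the chain of the anchoring fibrils below the epidermis, fell by 0.97 (SE 0.32, adjusted p = 0.0463, limma). That call was lost on leaving out any 1 library other than control 3, stiripentol 3 or stiripentol 5, with adjusted p of 0.0558 to 0.103. The change of Col7a1 was -2.03 in the 4-library set and -0.26 (adjusted p = 0.350) in the 6-library set. Of the multiplexins, which sit in basement membrane zones, Col18a1, the source of endostatin, went from 9.82 ± 0.03 to 9.53 ± 0.04 (SD, n = 5 each). The groups of Col18a1 did not overlap, and it fell by 0.29 (SE 0.08, adjusted p = 0.0195, limma), but with median-of-ratios scaling the change was -0.21 (adjusted p = 0.240). Col15a1 was at the edge of the filter with a mean of 0.05, and its change was -0.32 (SE 0.58, adjusted p = 0.697).

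Some members lie close to each other in the genome (GRCm38.p6). Col3a1 (chr1:45311538-45349706) and Col5a2 (chr1:45374331-45503282) are 24.6 kb apart on opposite strands with no protein-coding gene between them, and changed by -5.71 and -0.20. Col6a2 (chr10:76595756-76623630) and Col6a1 (chr10:76708792-76726044) are 85.2 kb apart on the minus strand and changed by -2.05 and -1.46. An exon of Col3a1 overlaps the miRNA gene Gm47302 by 141 bases, and exons of Col5a1, Col7a1, Col15a1 and Col4a2 also overlap small or antisense genes by 14 to 113 bases.

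Reads of all 42 chains together took 0.400 to 0.494% of a control library and 0.236 to 0.366% of a stiripentol library, with means of 0.446 ± 0.041% and 0.311 ± 0.067% (SD, n = 5 each). The ranges did not overlap, although stiripentol 3 to 5 lay close to the lowest controls. Fibrillar chains took 0.0794 ± 0.0087% in control and 0.0313 ± 0.0097% in stiripentol libraries, and the other chains 0.154 ± 0.006% and 0.0961 ± 0.0049%. Basement membrane chains took 0.212 ± 0.052% and 0.184 ± 0.062%, which overlapped. Col3a1 took 6.65 to 8.09% of the collagen reads in controls 1 to 3, 0.570 and 0.660% in controls 4 and 5, and 0.0389 to 0.164% in stiripentol libraries. The share of Col4a1 was higher with stiripentol in the 6-library set, at 20.9 to 24.7% in control and 36.4 to 36.9% in stiripentol libraries. In the 4-library set it was 29.7 and 28.8% in control and 28.6 and 28.2% in stiripentol libraries. Shares of reads follow transcript length as well as abundance where whole transcripts were sequenced, so they give no order of levels between chains.

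**Figure D3:**
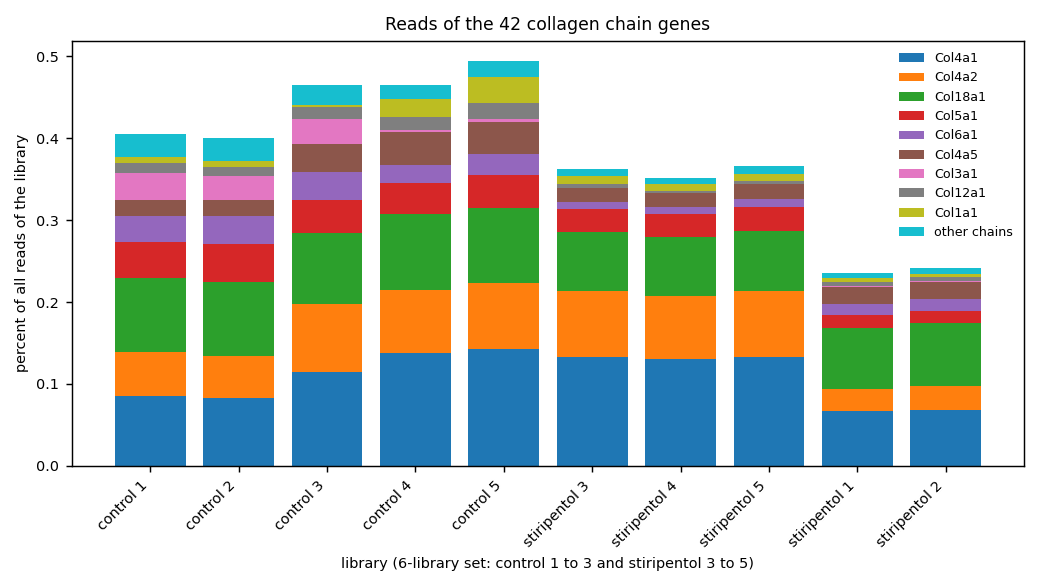
Percent of all reads of a library that fell in the 42 collagen chain genes, 1 stacked bar per library from 0, divided among 9 chains and the rest. The bars reach 0.400 to 0.494% in control and 0.236 to 0.366% in stiripentol libraries, with stiripentol 1 and 2 lowest.

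The 2 library sets were also compared on their own, with the limit given above on p-values within a set and of a difference between the sets. In the 4-library set (2 against 2), 17 of the 19 chains were called lower and 1 higher, against 46.5% and 25.7% of all genes (limma). In the 6-library set (3 against 3), 10 chains were called lower and 2 higher, against 27% and 37.7% of all genes. In both sets 10 chains fell, namely Col1a2, Col3a1, Col5a1, Col5a3, Col27a1, Col6a1, Col6a2, Col12a1, Col8a1 and Col18a1, as did 18.8% of all genes. Col20a1 rose in both sets, by 0.95 (adjusted p = 0.000709) and 2.51 (adjusted p = 0.00414). The change differed between the sets for 13 of the 19 chains (interaction in limma, adjusted p under 0.05), a share near that of all genes, 63.3%. Col1a2, Col3a1, Col6a1, Col6a2 and Col8a1 fell more in the 6-library set, with differences of -1.14 to -4.61 on the log2 scale. The other 8, among them Col1a1, Col4a1 and Col4a2, had a change lower in the 4-library set by 0.73 to 3.49. Summed fibroblast markers were 603 to 604 CPM in the controls and 159 to 163 in the stiripentol libraries of the 4-library set, and 359 to 569 and 178 to 192 CPM in the 6-library set, and their part in these differences was not tested.

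**Figure D4:**
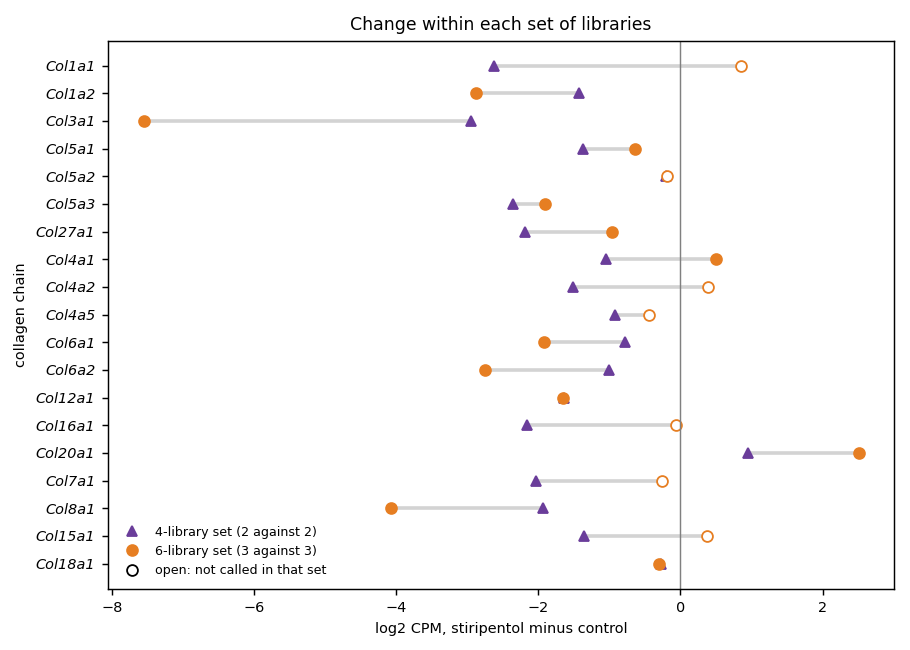
Change of each tested chain on the log2 CPM scale, stiripentol minus control, in the 4-library set (triangles, 2 against 2) and in the 6-library set (circles, 3 against 3), joined by a line. Open symbols were not called in that set. Col1a1, Col4a1, Col4a2 and Col15a1 lie on both sides of 0, and Col12a1 has the same change in both, -1.64 and -1.65.

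The 23 chains below the filter were counted. Col6a3 (above), Col23a1 and Col8a2 reached 100 or more reads in a library. Col23a1, a transmembrane chain with a mean of -0.11, had 16 to 155 reads in control and 57 to 83 in stiripentol libraries. Col8a2, which forms networks with Col8a1, had 5 to 118 and 2 to 20 reads, and its 2 highest values were in controls 4 and 5, unlike those of Col8a1. The other 20 chains, among them the cartilage chains Col2a1, Col9a1, Col10a1 and Col11a1, had at most 97 reads in any library. Just inside the filter were Col15a1 (mean 0.05) and Col5a2 (mean 0.14), and just outside it Col6a3 (-0.09) and Col23a1 (-0.11).

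The other genes of the collagen pathway were described from 5 lists, with 55 genes tested. Of these 25 fell and 1 rose, with a median change of -0.38, against 14.1% lower and 13.6% higher among all genes. The count of genes called higher was 3 with a term for the cluster, where 2908 of all 12306 genes were. It was 6 in the 4-library set, against 25.7% of all genes, and 13 in the 6-library set, against 37.7%. Called lower were 37 in the 4-library set, against 46.5% of all genes, and 28 in the 6-library set, against 27%. Of 18 genes that modify and fold the chains, 7 fell, with a median of -0.31. Of these, P3h3, of the prolyl 3-hydroxylase family, changed most, by -2.04 (adjusted p = 0.00254), then Plod2, the lysyl hydroxylase that prepares crosslinks, by -1.59 (adjusted p = 0.00189) and Crtap, a partner of prolyl 3-hydroxylase, by -1.26 (adjusted p = 0.000123, limma). Of 11 secretion genes, 1 was called, Sar1b, a COPII GTPase, which rose by 0.55 (adjusted p = 0.00363, limma), and the median was 0.13. That is 1 of 11, against 13.6% called higher among all genes.

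Of 10 genes that cleave propeptides or crosslink collagen, 9 fell, against 14.1% of all genes, with a median of -0.95. Lox, the founding lysyl oxidase, went from 5.59 ± 0.35 to 3.26 ± 0.34 (SD, n = 5 each) and fell by 2.32 (adjusted p = 0.000112, limma). Pcolce, which enhances the removal of the C-propeptide, fell by 1.33 (adjusted p = 0.00125), and Adamts14, which removes the N-propeptide, fell by 1.22 (adjusted p = 0.00249, limma). The tenth, Loxl1, changed by -0.80 (adjusted p = 0.111).

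Of 10 matrix proteins that bind fibrils, 6 fell, against 14.1% of all genes, with a median of -2.11. One of them, Prelp, passed the filter through its controls, with means of 1.63 in control and -1.25 in stiripentol libraries. Among these, Fbn1, the fibrillin of microfibrils, changed by -3.48 (adjusted p = 0.000322), Ogn, a small proteoglycan, by -3.30 (adjusted p = 9.64e-05) and Thbs1, thrombospondin, by -3.23 (adjusted p = 0.000239, limma). Fn1, the fibronectin on which collagen is laid down, changed by 0.08 (adjusted p = 0.799), with 0.70 in the 4-library set and -0.33 in the 6-library set. Of 6 receptors, 3 fell, against 14.1% of all genes. These were the collagen-binding integrin chains Itga1 at -1.56 (adjusted p = 0.00420), Itga2 at -1.19 (adjusted p = 0.0464) and their partner Itgb1 at -0.38 (adjusted p = 0.00926, limma). The receptor kinases Ddr1 and Ddr2 changed by -0.06 and -0.35 and the uptake receptor Mrc2 by -2.53 (adjusted p = 0.0927), all not called. Mrc2 too passed the filter through its controls, with means of 1.94 and -0.59. Loxl1, Prelp, Fn1, Dcn, Ddr1, Ddr2 and Mrc2 were chosen for naming after their values were seen. Dcn is in the list of fibril-binding proteins and in that of fibroblast markers, and its change was -0.49 (adjusted p = 0.557), with 1.76 in the 4-library set and -1.996 in the 6-library set.

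**Figure D5:**
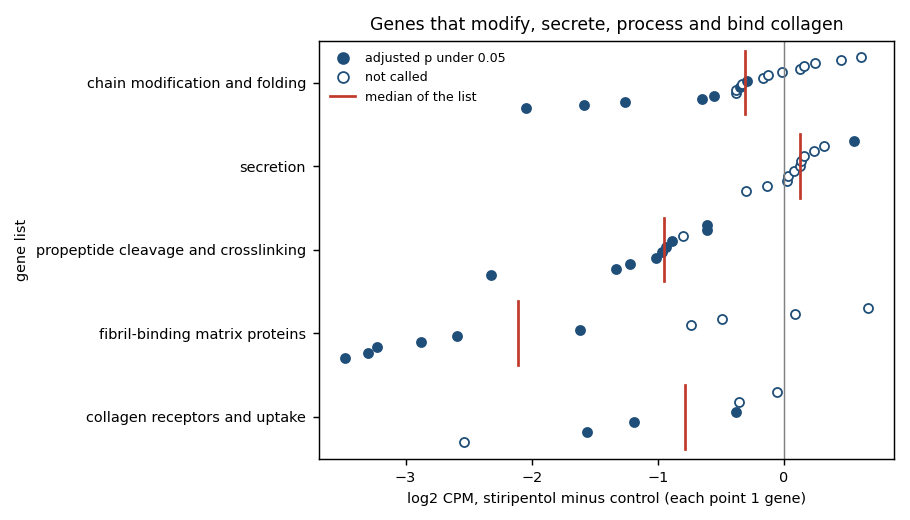
Change of 55 genes that modify, secrete, process or bind collagen on the log2 CPM scale, stiripentol minus control, each point 1 gene in its list. Filled points are called at adjusted p under 0.05 (limma over all genes), and red lines are list medians. The medians lie at -0.31, 0.13, -0.95, -2.11 and -0.79 from top to bottom.

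The genes whose levels over the 10 libraries were most like those of Col3a1 were Pcolce (Pearson r = 0.996), Malrd1 (0.995), Gamt (0.994), Slpi (0.993) and Adamts7 (0.993). These correlations are a description over 10 points that share the cluster structure of the libraries, so the points are not independent. Among these genes the change was -1.33 for Pcolce, -1.79 for Malrd1, -0.86 for Gamt, -1.99 for Slpi and -2.19 for Adamts7, against -5.71 for Col3a1.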

How the data were processed

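RNA from 5 control and 5 stiripentol libraries of mSCLC-2405 cells was analysed from the single table the authors deposited. Its values are log2 CPM per gene, made by the authors with GENAVi, with a prior of 0.837 to 2.38 reads. The labels name mm10. The aligner and annotation are not given in the sources used here. The methods name Lexogen QuantSeq 3′ mRNA libraries and the labels TruSeq total RNA libraries. The 10 columns of the authors' own comparison (group means, ratios, p- and q-values) were not used.

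Whole reads were recovered from 100% of values (tolerance 0.05 reads). A gene with no reads was at -4.82 in controls 1 to 3 and -4.74 in the other libraries, so normalization was in 2 batches. No library was a copy of another (lowest chi-square per gene within a cluster, 8.39). Groups were compared on the deposited log2 values with limma 3.58.1 (R 4.3.3; lmFit, eBayes with trend) over 12306 genes with mean log2 CPM above 0, Benjamini-Hochberg adjusted, and called at adjusted p under 0.05. Fits were tested on simulated data. Alternatives were leaving out each library, a block, a cluster term, each cluster alone, cluster means, other scalings, voom on recovered reads, pseudocounts, filters and a minimum change of 1. Python 3.11.15, pandas 2.3.3 and matplotlib 3.10.9 were used. Promoter letters are from RefSeq.

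The members and lists were chosen with earlier results of these data known. All chains above the filter are named, with every library for those called with an absolute change of at least 1 or of type I, III, IV or VI. Chains below it are named at 100 or more reads in a library. Of each pathway list up to 3 falls and 3 rises are named, and the 5 genes best correlated with the chain of largest change. Some results are not reported here.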

Additional observations from a re-analysis of the deposited data

Results flagged for a closer look

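The change of 13 chains differed between the library sets (interaction term in limma, adjusted p under 0.05), against 63.3% of all genes. Given as the change in the 6-library set minus that in the 4-library set on the log2 scale, the difference was 3.49 for Col1a1 (adjusted p = 0.000110), 0.73 for Col5a1 (adjusted p = 0.000135), 1.22 for Col27a1 (adjusted p = 0.00217), 1.54 for Col4a1 (adjusted p = 1.79e-05), 1.90 for Col4a2 (adjusted p = 3.88e-05), 2.10 for Col16a1 (adjusted p = 0.00508), 1.77 for Col7a1 (adjusted p = 0.000674) and 1.74 for Col15a1 (adjusted p = 0.00646), limma in each case. It was -1.46 for Col1a2 (adjusted p = 0.000736), -4.61 for Col3a1 (adjusted p = 8.52e-08), -1.14 for Col6a1 (adjusted p = 9.80e-06), -1.75 for Col6a2 (adjusted p = 6.84e-06) and -2.15 for Col8a1 (adjusted p = 1.49e-05), likewise from limma. The sets were formed from correlations over all genes of these libraries, and this difference describes them and no labelled condition. Its p-values rest on the spread inside the sets, which is small by selection.

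In 1 of 38 groups of 5 libraries examined, a single library stood apart from the other 4 by its distance to the nearest of them. This was Col16a1 in control 3, at 2.64 log2 CPM, where the other controls were at 3.99 to 4.44. Chance alone marks about 1 in 20 such groups.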

How the results depend on the processing

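The count of chains that fell was 12. It was 8 to 12 under the other scalings, pseudocounts, filters, voom, the cluster term and a minimum absolute change of 1. With 1 library left out it was 10 to 11, and it was 10 and 17 in the 6-library and 4-library sets. Of all genes, 1740 were called lower as reported, 3336 with the cluster term and 890 at the minimum change. With 1 library left out 1171 to 1802 were. The other scalings, pseudocounts, filters and voom gave 1618 to 1864, over other gene numbers where the filter changed. In the 6-library and 4-library sets 27% and 46.5% of all genes were called lower. With 1 mean per cluster and group no gene was called by limma, so the chains lower and higher and the pathway genes lower and higher were each 0, with 9 chains and 16 pathway genes at an unadjusted p under 0.05. All counts at an unadjusted p in this section stand without the share of all genes, so they say nothing particular about these genes. The 1 chain that rose became 0 with no filter (17 of 42 chains at an unadjusted p under 0.05), 2 in the 6-library set and 0 to 1 with 1 library left out. Of all genes, 1674 were called higher as reported, 1705 with no filter, 4637 in the 6-library set and 1218 to 1706 with 1 library left out. With a block for the replicate numbers in the sample titles, chains lower were 9 and higher 0, with 13 at an unadjusted p under 0.05, and Col18a1, Col4a5, Col7a1 and Col20a1 lost their calls. Of all genes 1062 were lower and 1020 higher with that block. Same-numbered libraries did not deviate together (correlations of -0.24 to 0.06). The block joined controls 1 and 2 of the 6-library set with stiripentol 1 and 2 of the 4-library set. Controls 4 and 5 were likewise joined across the sets. In the study's own table controls 3 to 5 have the lower value for genes with no reads, so its control numbers differ. Neither the block nor these correlations can decide whether libraries were paired. Pathway genes lower were 15 and higher 0 at a minimum change of 1, where 890 and 404 of all genes were. Pathway genes higher, 1 as reported, were 3 with a cluster term, 2 with either scaling and 1 to 2 with 1 library left out, 2 without stiripentol 2. Of all genes 2908 were higher with the cluster term, 1783 and 2094 with the scalings and 1218 without stiripentol 2. They were 6 in the 4-library set, against 25.7% of all genes, and 13 in the 6-library set, against 37.7%. The direction turned in the 6-library set for Col1a1 (0.86), Col4a1 (0.50), Col4a2 (0.39) and Col15a1 (0.38), and with quantile normalization for Col5a2 (0.076). Leaving out 1 library gave -0.22 to 0.024 for Col4a1, above 0 without stiripentol 1 or 2, and -0.69 to 0.076 for Col15a1, above 0 without control 5. The cause was not tested. Over 435 values of single chains under alternatives, 368 kept direction and call, 54 lost the call, 5 gained it and 8 turned. Quantile normalization moved the median of all genes from -0.06 to 0.05. The 13 differences between sets were 10 to 17 under alternatives chosen after seeing the data. Depth limits the 20 chains with at most 97 reads in any library, of which limma with no filter called none, with 3 at an unadjusted p under 0.05.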
